A study of Camponotus floridanus with 48 samples.

Results

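The most abundant non-coding transcripts of the Florida carpenter ant larva were 300 RefSeq transcripts whose names start with XR_, taken from whole-body RNA of 48 larvae. RefSeq gives such names to predicted transcripts without a protein product. The files list 26315 transcripts, of which 1915 carry an XR_ name. A mean of at least 5 TPM (transcripts per 1000000 transcripts of a library) was reached by 316 of these, and the 300 of highest mean were kept. TPM is a share of the library per unit of transcript length, so levels of different transcripts can be set side by side on it. The values that chose the transcripts were their mean TPM, so levels and spread are described here without a test. The last transcript kept was XR_003122922.1 of LOC112638248 at a mean of 5.44 TPM, after XR_889203.2 at 5.55 and XR_002192740.2 at 5.56. The next ones below, which were left out, were XR_003123700.1 at 5.42 TPM, XR_003123067.1 at 5.40 and XR_003123214.1 at 5.39.

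The larvae were females of Camponotus floridanus at the terminal larval stage, all from 1 colony, with no treatment given in the labels. Each was a separate animal and gave 1 library of poly(A)-selected RNA from its whole body. Body length ran from 4648 to 7598 µm, with a mean of 6069 ± 903 (SD, n = 48), and the study asks what goes with worker size. There are no groups other than length. For description, the 16 shortest larvae (up to 5377 µm), the 16 longest (from 6689 µm) and the 16 between them are given side by side, while every test used length in mm over all larvae. Since a whole body is 1 sample, fewer cells of a type and less RNA per cell cannot be told apart in any result below.

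The libraries held 6608775 to 63171625 assigned reads, with a median of 42681862. Larvae No. 42 and No. 43 were the shallowest, and the others all had at least 29813793. On the first principal component of gene expression, which carried 44.0% of the variance, 15 libraries scored above 20 and stood apart from the other 33. Of these 15, 2 came from the shortest larvae, 8 from the intermediate and 5 from the longest. Many of the results below are given with and without these 15 libraries. Slopes of coding neighbours, counts of neighbour pairs and the slopes of some called transcripts are given over all larvae only. How far those depend on the 15 libraries is therefore not shown.

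Long non-coding RNAs are transcripts that resemble messenger RNAs, often capped, spliced and polyadenylated, but code for no known protein. Some act on the transcription of genes near them and others bind proteins or other RNAs, and for most no role is known. Ribosomal RNA forms the core of the ribosome, small nuclear RNAs (snRNAs) work in splicing, and small nucleolar RNAs (snoRNAs) guide the modification of ribosomal RNA. These 3 kinds generally lack a long poly(A) tail, so what a poly(A)-selected library holds of them is what the selection left. A coding gene can also give transcripts that the annotation holds to be non-coding.

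By the class of their gene in RefSeq, 168 of the 300 transcripts came from 155 long non-coding RNA genes. Another 96 were non-coding isoforms of 87 protein-coding genes. There were 18 ribosomal RNAs, 8 snRNAs, 2 snoRNAs and 8 transcripts of 6 genes in the class misc_RNA, which holds non-coding transcripts that the annotation places in no other class. The gene table gives symbols and classes but no product names, so the genes appear here under their LOC symbols. The 300 transcripts belong to 276 genes, and 45 of them share their gene with another of the 300.

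The levels covered a wide range, with a few very abundant transcripts and many low ones. The median of the mean TPM was 12.8, 192 transcripts were under 20 TPM and 21 reached 100 TPM. Of these 21, 15 were transcripts of long non-coding RNA genes, 3 were ribosomal, 2 were isoforms of coding genes and 1 was a misc_RNA.

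**Figure D1:**
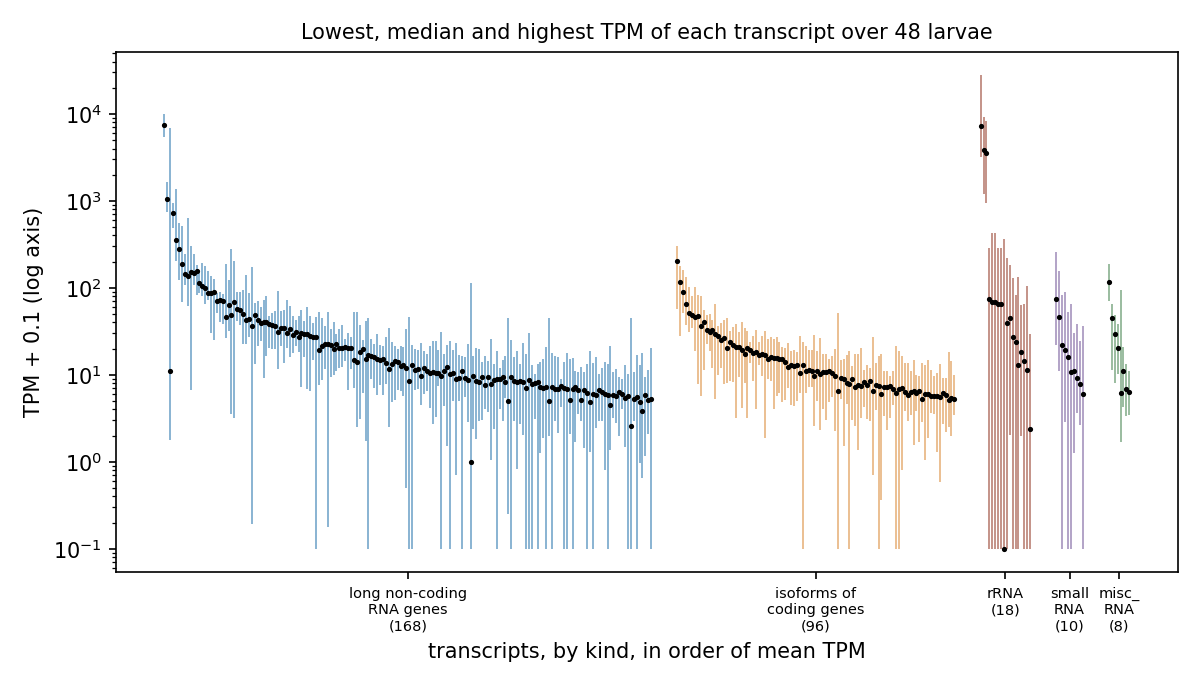
Lowest, median and highest TPM of the 300 transcripts over 48 larvae, by kind and in order of mean TPM within a kind, on a log axis after adding 0.1. Lines run from the lowest to the highest larva and dots mark the median. Lines that reach the floor of the plot belong to transcripts listed at 0 in some larva, 49 in all.

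Among the long non-coding RNAs, XR_889146.3 of LOC105250656, a transcript of 434 nt, was by far the most abundant. Its lowest larva had 5449 TPM, the median larva 7367 and the highest 9916, so all 48 larvae lay within a 2-fold range. XR_889239.2 of LOC105251872 followed with 748, 1059 and 1660 TPM in its lowest, median and highest larva. XR_003122594.1 of LOC112637536, only 254 nt long, had 491, 724 and 938 TPM. These 3 genes have a single annotated transcript each, and none of the 3 passed the test against length that is described below.

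The other long non-coding RNAs among the 10 highest transcripts varied more between larvae. XR_889279.3 of LOC105252234 ran from 206 to 1385 TPM around a median of 351. XR_002192528.2 of LOC105250695 ran from 124 to 555 around 281, and XR_889462.3 of LOC105254690 from 68.2 to 520 around 187. For LOC105252234 the median was 590 TPM in the 15 libraries that stand apart and 312 in the other 33, and for LOC105254690 it was 359 and 144. LOC105250695 went the other way, with 213 TPM in the 15 and 328 in the 33. The ranges of the 15 and the 33 overlapped in each of these genes.

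The summed level of the 168 long non-coding transcripts was 14547 to 21056 TPM in the 15 libraries and 11330 to 17033 TPM in the other 33. In reads they took 0.335% to 0.717% of a library. Without XR_889609.2, described next, the ranges were 13229 to 18513 TPM and 11327 to 17020 TPM. The 96 non-coding isoforms summed to 1003 to 2080 TPM in the 15 and 1577 to 2339 TPM in the 33. The part that the state of these libraries has in the sums was not tested.

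Spread between larvae was measured as the SD of log2(TPM + 1) over the 48. Its median was 0.52 for all 300 transcripts, 0.52 for the long non-coding RNAs and 0.44 for the non-coding isoforms. The 9510 coding transcripts with a mean of at least 5 TPM had a median of 0.46. At 5 to 20 TPM the long non-coding RNAs had 0.58 and the coding transcripts 0.54, at 20 to 100 TPM they had 0.40 and 0.38, and from 100 TPM on 0.34 each. Without the 15 libraries the medians were 0.41 for all 300, 0.42 for the long non-coding RNAs, 0.33 for the isoforms and 0.30 for the coding transcripts. The isoforms thus had a smaller median than the coding transcripts over all larvae and a larger one without the 15 libraries. The highest larva was less than 2-fold above the lowest in 7 of the 300 transcripts. In 100 it was more than 10-fold above the lowest or the lowest was at 0 TPM. Of these 100, 49 were at 0 in some larva, so no fold exists for them.

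**Figure D2:**
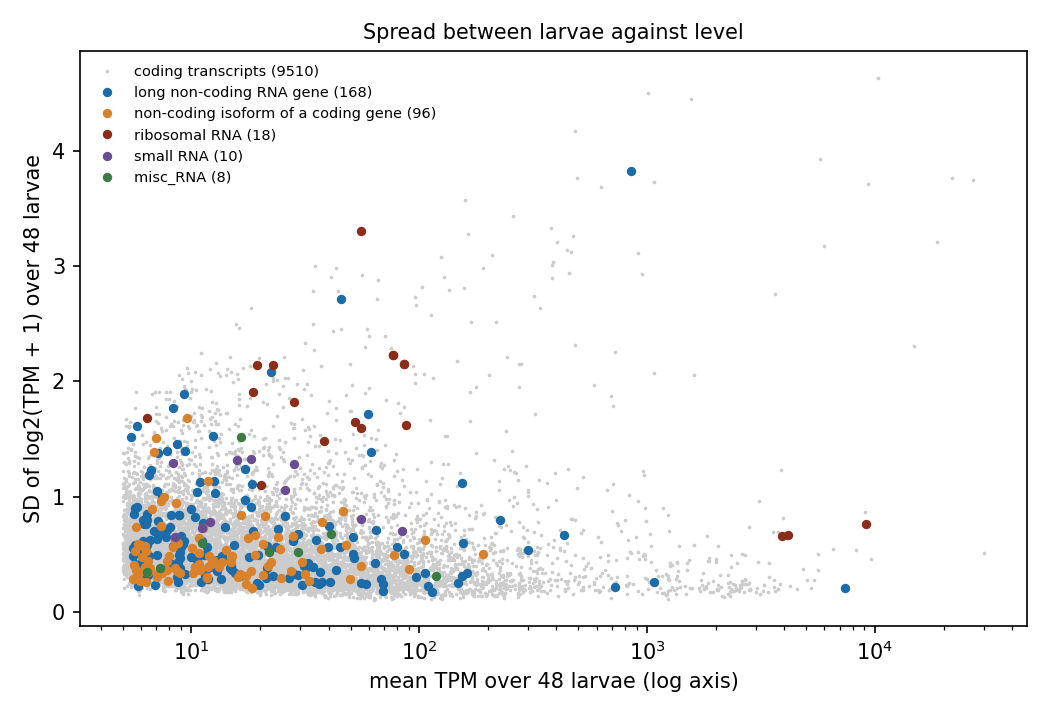
SD of log2(TPM + 1) over 48 larvae against mean TPM on a log axis, for the 300 non-coding transcripts by kind and for 9510 coding transcripts in grey. Most long non-coding RNAs lie within the cloud of coding transcripts, with LOC105256728 at 3.82 as the highest of the 300, while ribosomal RNAs of low level lie mostly above 1.

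The steadiest transcripts were XR_002192419.2 of LOC105248636, with an SD of 0.17, and XR_889649.3 of LOC105257255, with 0.18. The former ran from 86.3 to 161 TPM and the latter from 51.8 to 87.2. LOC105250656 and LOC112637536, described above, had 0.21 each. The remaining one of the 5 smallest was XR_889570.3, a non-coding isoform of the coding gene LOC105256050, at 13.5 to 23.7 TPM with an SD of 0.21.

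The largest spread belonged to XR_889609.2 of LOC105256728, a long non-coding RNA of 287 nt. It was at 1.66 to 19.5 TPM in 34 larvae and at 214 to 6826 TPM in the other 14, with no larva between. All 14 high larvae belong to the 15 libraries that stand apart on the first component, and the remaining library of the 15 had 12.9 TPM. Its mean of 846 TPM therefore lies far above its median of 10.9. The component was computed from the same libraries, so this match is a description. Against length its slope was 1.72 ± 0.84 log2 units per mm (SE; edgeR adjusted p = 0.184), and without the 15 libraries it was 0.02 (adjusted p = 0.972).

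XR_003122983.1 of LOC105256702, a long non-coding RNA of 2115 nt, went the other way. Its level was 0.093 to 2.13 TPM in 18 larvae and 5.61 to 172 TPM in 30. Of the 18 low larvae, 13 belong to the 15 libraries, and none is among the 16 shortest larvae. The coding gene next to it in the gene table, LOC105253988, was at 0.220 to 1.72 TPM in the same 18 larvae and at 2.98 to 141 TPM in the 30 others.

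A level that falls into separate ranges, defined here as a gap of at least 1 log2 unit of TPM + 1 with at least 4 larvae on each side, occurred in 27 of the 300 transcripts (9.00%) and in 216 of the 9510 coding transcripts (2.27%). This definition was made after the values were seen. It held for 14 of 168 long non-coding transcripts (8.33%), 10 of 18 ribosomal ones (55.6%) and 2 of 96 non-coding isoforms (2.08%). These shares were not matched for level, and in most of the 27 transcripts the low side of the gap was at 0 TPM. The transcripts in the rest of this paragraph were likewise chosen after their values were seen. XR_889131.3 of LOC105250516 had 17 larvae at 3.12 to 14.3 TPM, 26 at 53.3 to 95.2 and 5 at 130 to 204. Only the lower break met the definition. The 17 low larvae were 6 of the shortest, 8 of the intermediate and 3 of the longest, and 5 of the 15 libraries. LOC105250517, which overlaps it in the gene table, was low in the same 17 larvae, with XR_889132.3 at 0 to 1.94 TPM there and at 6.33 to 30.2 in the others. Of the 5 highest larvae of each transcript, 4 were shared. Because the genes overlap and no source used here gives the strand setting of the counting, reads of the overlap cannot be assigned to either with certainty.

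**Figure D3:**
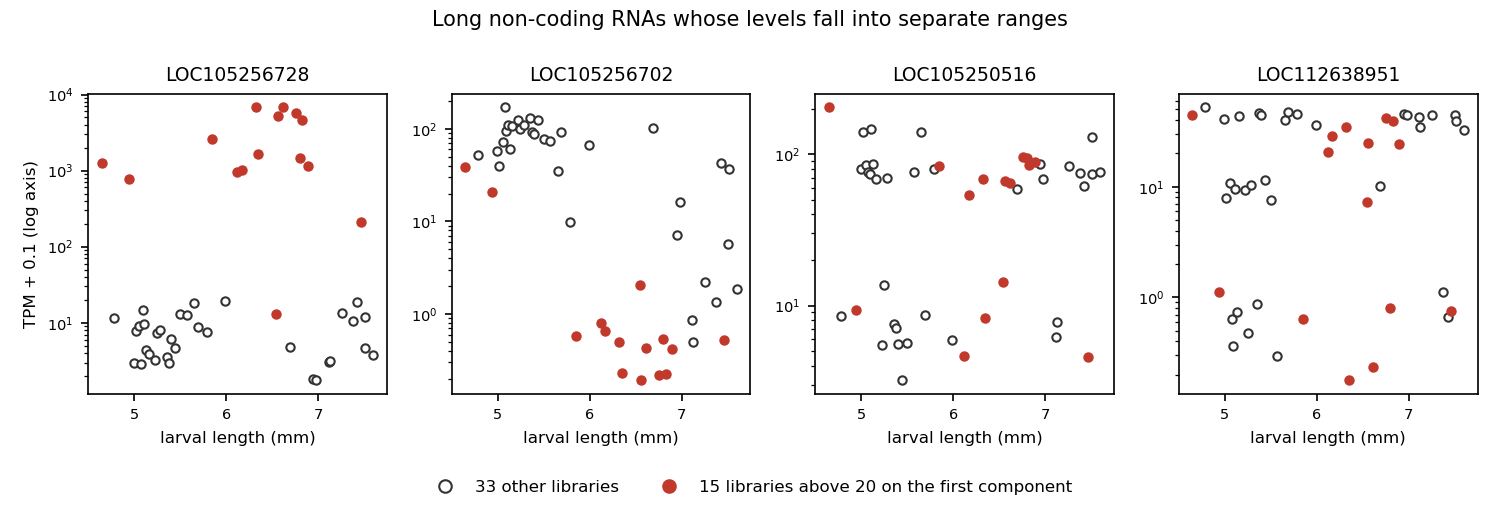
TPM + 0.1 on a log axis against larval length in mm for 4 long non-coding RNAs, 1 point per larva, with the 15 libraries above 20 on the first component filled. LOC105256728 is high in 14 of the filled points only, and LOC105256702 is low in 13 of them. LOC105250516 and LOC112638951 are described in 3 ranges each, with filled and open points in every range. Only their lower break is a gap of at least 1 log2 unit of TPM + 1.

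XR_003123228.1 of LOC112638951 had 14 larvae at 0.079 to 1.03 TPM, 9 at 7.23 to 11.5 and 25 at 20.6 to 52.3. Here too only the lower break met the definition of a gap. The 15 libraries were spread over these 3 ranges as 6, 1 and 8. XR_003122551.1, the only transcript of LOC112637445, was listed at 0 in 8 larvae, with 0 reads, and had 88.0 to 233 reads or 9.62 to 21.7 TPM in the other 40. None of LOC105250516, LOC105250517, LOC112638951 and LOC112637445 passed the test against length (edgeR adjusted p = 0.877, 0.974, 0.684 and 0.841). XR_003122439.1 of LOC112637167 was also at 0 in 8 larvae. There another transcript of the same gene, XR_003122438.1, had 10.9 to 18.7 TPM, while it was at 0 in 39 of the 40 other larvae. In all but 1 larva the estimate thus gave only 1 of these transcripts a level above 0, and the gene as a whole was present in every larva.

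The ribosomal RNA of highest TPM was not the one with the most reads. XR_003123716.1 of LOC112639882, 155 nt long, had a mean of 9102 TPM from a mean of 8460 reads, because its mean effective length was only 30.3 nt. XR_003122864.1 of LOC112638022 (1921 nt) had 4151 TPM from 208898 reads, and XR_003122858.1 of LOC112638015 (4172 nt) had 3891 TPM from 432163 reads. Their lowest, median and highest larvae were at 3186, 7174 and 27869 TPM, at 1185, 3820 and 9154 TPM, and at 953, 3554 and 8389 TPM. The 18 ribosomal members took 0.401% to 2.97% of the reads of a library, with a median of 1.44%.

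Of the 15 remaining ribosomal transcripts, 13 were 120 nt long with a mean effective length of 15.4 nt, and their levels rested on 9.18 to 42.5 reads per larva on average. XR_003122431.1 of LOC112637153 was the highest of them, with a median of 73.9 TPM and a range of 0 to 285. XR_003122673.1 and XR_003122674.1 held identical values in every larva, at 0 to 422 TPM, and so did XR_003122584.1 and XR_003122585.1, at 0 to 287 TPM. The 2 names of such a pair carry a single measurement, although the counts given here list them separately. XR_003122669.1 of LOC112637696 was listed at 0 in 25 of the 48 larvae and reached 367 TPM in another. The median SD of log2(TPM + 1) was 1.75 over the ribosomal transcripts, and it was 0.61 as log2(CPM + 1), with CPM standing for counts scaled to a common library size. For transcripts of few reads the added 1 weighs differently on each scale, so these medians are not like measures of spread.

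The small RNAs were low in reads as well. The highest was the snoRNA XR_003122665.1 of LOC112637662, with 22.2, 74.6 and 261 TPM in its lowest, median and highest larva from a mean of 166 reads. The snRNAs reached 55.7 TPM on average in XR_003122491.1 of LOC112637281, and 8.31 in the lowest, XR_003123483.1. Among the misc_RNAs, XR_003123714.1 of LOC105259161 was the highest, with 69.8, 117 and 190 TPM, and carried 54.1% of the reads of its gene.

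The relation with length was tested with edgeR's quasi-likelihood test over all 19714 transcripts that passed its filter on low counts, with Benjamini-Hochberg adjustment over all of them and a threshold of 0.05. Of the 300 non-coding transcripts 299 passed the filter, all but XR_003123483.1. With longer larvae 27 of the 299 rose (9.03%) and 20 fell (6.69%), and 252 did not pass the test. Of all transcripts tested, 7.16% rose and 6.48% fell. The median slope was 0.03 log2 units per mm for the 299 and -0.0048 for all transcripts. Of the coding transcripts with at least 5 TPM, 20.0% were called in either direction, against 15.7% of the non-coding ones. The share called among the non-coding transcripts thus lay between that of these coding transcripts and the 13.6% of all transcripts, which were not chosen by level.

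Without the 15 libraries 22 rose and 20 fell of 297 tested, beside 7.40% rising and 8.76% falling over all transcripts. In either direction 14.1% of the non-coding transcripts were called there, 16.2% of all and 25.9% of the coding ones with at least 5 TPM. Of the 47 calls, 35 held with the same sign. In the fit of log2(TPM + 1) with limma, 20 rose and 46 fell, beside 4.58% and 16.0% over all transcripts. The rising share of the calls was 57.4% in the count fit and 30.3% on TPM, where the median slope of all transcripts was -0.07. The balance of rising and falling calls therefore depends on the scale, and the slopes below are relative to the TMM scaling of edgeR. No called transcript changed sign in any of 15 alternative fits.

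By kind, 18 of the 168 long non-coding transcripts rose and 10 fell. Of the 96 non-coding isoforms 7 rose and 10 fell, and of the 8 misc_RNAs 2 rose. None of the 18 ribosomal and 9 tested small RNAs passed edgeR's test, with slopes from -0.07 to 0.39 and from -0.14 to 0.42. At an unadjusted p under 0.05 there were 0 ribosomal and 1 small RNA, and DESeq2 called 0 of either.

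**Figure D4:**
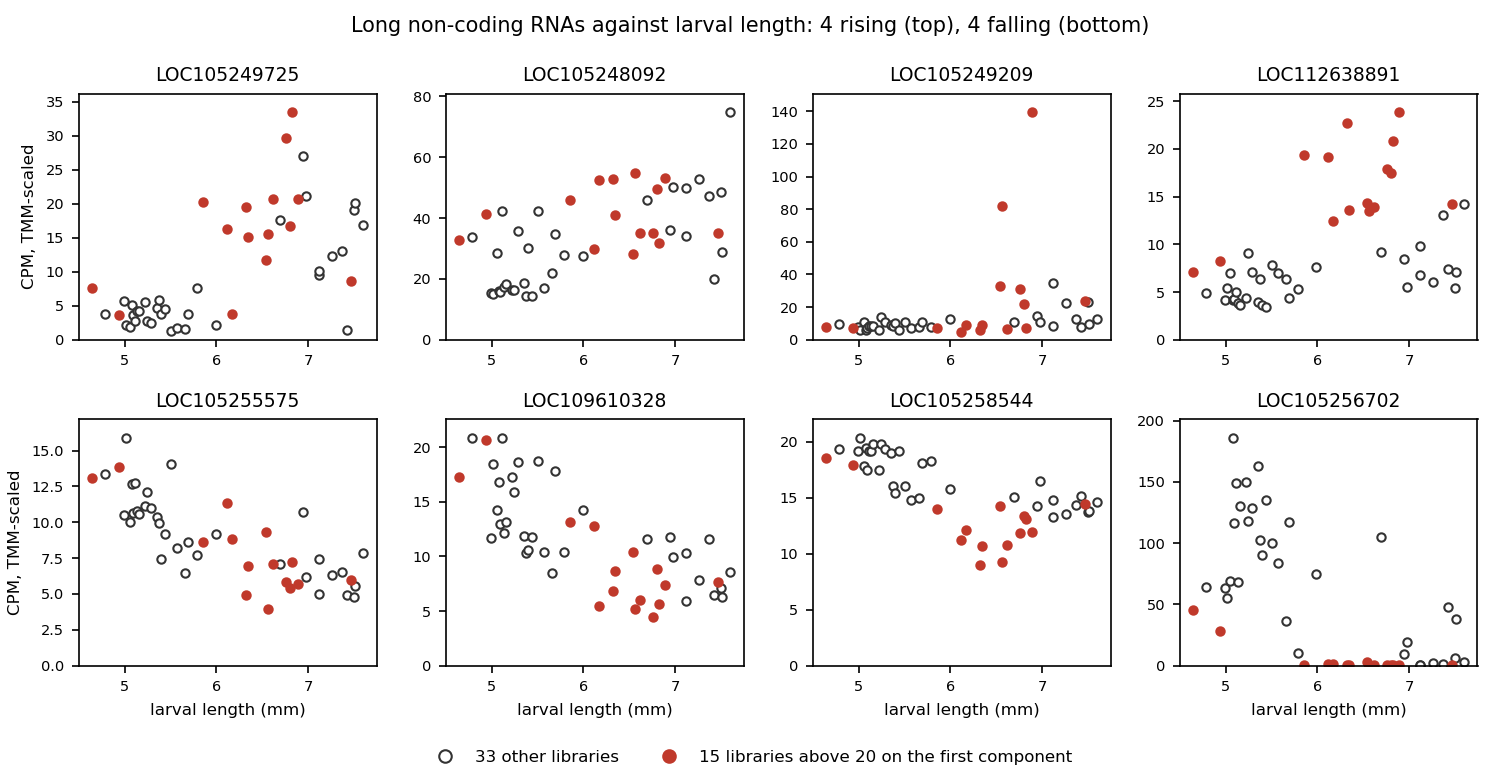
TMM-scaled CPM against larval length in mm for the 4 rising (top) and 4 falling (bottom) long non-coding RNAs of smallest p, 1 point per larva, with the 15 libraries above 20 on the first component filled. Axes start at 0. All 16 of the longest larvae lie under the median of the 16 shortest in the 4 falling genes, and the largest values of LOC105249209 are filled points.

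Among the long non-coding RNAs that rose, XR_889066.3 of LOC105249725 had the smallest p. Its TMM-scaled level was 1.88 to 7.67 CPM in the 16 shortest larvae with a median of 4.02, 1.30 to 20.7 with a median of 6.05 in the intermediate, and 1.42 to 33.5 with a median of 17.2 in the longest. The groups overlapped through a single low larva among the longest, and 15 of the 16 longest exceeded the median of the 16 shortest. The mean was 4.22-fold higher in the longest. The slope was 1.01 ± 0.16 log2 units per mm (SE, n = 48; edgeR adjusted p = 1.41e-05) and 0.97 ± 0.15 without the 15 libraries (adjusted p = 1.93e-05). Its coding neighbours LOC105249724 and LOC105257948 had gene slopes of 0.02 and 0.04 and did not pass (adjusted p = 0.606 and 0.828).

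XR_888947.2 of LOC105248092 was at 14.4 to 42.3 CPM in the shortest larvae (median 17.8), at 14.5 to 54.9 in the intermediate (median 32.5) and at 20.1 to 74.9 in the longest (median 46.6). The ranges overlapped, but all 16 longest larvae exceeded the median of the 16 shortest. Its slope was 0.39 ± 0.08 (edgeR adjusted p = 0.000877) and 0.46 ± 0.09 without the 15 libraries. Both coding genes beside it in the gene table rose too. LOC105248093, which overlaps it, had a slope of 0.33 ± 0.10 (edgeR on genes, adjusted p = 0.00901), and LOC105248133 had 0.32 ± 0.07 (adjusted p = 0.000834). As the strand setting of the counting is not given, reads of the overlap with LOC105248093 cannot be assigned to either gene with certainty.

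XR_889030.2 of LOC105249209 went from 6.06 to 13.8 CPM in the shortest larvae over 4.89 to 81.8 in the intermediate to 7.02 to 140 in the longest, with medians of 8.23, 8.36 and 13.7. The slope of 0.78 ± 0.17 (edgeR adjusted p = 0.000944) was 0.40 ± 0.09 without the 15 libraries (adjusted p = 0.0014). Neither coding neighbour passed, with gene slopes of 0.0059 for LOC105249207, which overlaps it, and 0.0077 for LOC105249206. XR_003123200.1 of LOC112638891 was at 3.69 to 9.07 CPM in the shortest, 3.41 to 22.8 in the intermediate and 5.44 to 23.9 in the longest larvae, with medians of 4.94, 10.1 and 9.50. The intermediate larvae thus had the highest median, but those of the 15 libraries were at 12.5 to 22.8 CPM and the others at 3.41 to 7.82. Among the longest, larvae of the 15 libraries were at 14.2 to 23.9 CPM and the others at 5.44 to 14.3. The highest of these others were the shallow larvae No. 43 and No. 42. All 16 longest larvae exceeded the median of the 16 shortest. Its slope was 0.54 ± 0.12 (edgeR adjusted p = 0.00153), and 0.34 ± 0.08 without the 15 libraries (adjusted p = 0.00176). The coding genes on either side of it, LOC105248814 and LOC105250993, rose as well, with gene slopes of 2.87 ± 0.78 and 3.02 ± 0.90 at mean levels of 1.57 and 4.49 TPM.

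XR_003123350.1 of LOC112639181 had the steepest of these slopes, which did not pass without the 15 libraries. Above a gap in its levels lay 12 larvae at 11.2 to 115 TPM, 6 of the 15 libraries and 6 of the other 33. Below it lay 36 at 0 to 3.66 TPM, 14 of the shortest, 14 of the intermediate and 8 of the longest. The mean was 9.28 TPM but the median 0.893, with 27 larvae under 1 TPM. The transcript thus reached the mean of 5 TPM only through the larvae above the gap. Those larvae also enter its slope, and the effect of this choice on the slope was not tested. The medians of XR_003123350.1 were 0.184, 0.169 and 1.59 CPM in the shortest, intermediate and longest larvae, and its highest larvae had 4.12, 35.0 and 49.1. The slope was 2.11 ± 0.55 (edgeR adjusted p = 0.00585) and 0.84 ± 0.45 without the 15 libraries (adjusted p = 0.234). Of the other rising ones, XR_003123442.1 of LOC105258447 had a slope of 0.53 ± 0.15 (edgeR adjusted p = 0.00851), and XR_003123029.1 of LOC112638492, a gene with 11 annotated transcripts, had 0.40 ± 0.11 (adjusted p = 0.00631). XR_889106.3 of LOC105250318 rose with 0.53 ± 0.15 (adjusted p = 0.0131) and with 0.31 ± 0.06 without the 15 libraries (adjusted p = 0.000483). In it all 16 longest larvae exceeded the median of the 16 shortest.

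Of the long non-coding RNAs that fell, XR_889534.3 of LOC105255575 had the smallest p of all 47 called transcripts. It was at 9.94 to 15.9 CPM in the shortest larvae (median 11.1), at 3.95 to 14.1 in the intermediate (median 8.42) and at 4.77 to 10.7 in the longest (median 6.10). The shortest and the longest larvae barely overlapped, and all 16 longest were under the median of the 16 shortest. The mean was 1.84-fold higher in the shortest. The slope was -0.42 ± 0.05 (edgeR adjusted p = 1.54e-07) and -0.38 ± 0.05 without the 15 libraries (adjusted p = 6.66e-06).

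XR_002192756.2 of LOC109610328 is the next gene in the gene table and fell alike. Its range was 10.3 to 20.9 CPM in the shortest larvae (median 16.4), 5.15 to 18.8 in the intermediate (median 10.4) and 4.46 to 11.7 in the longest (median 7.76). The slope was -0.47 ± 0.07 (edgeR adjusted p = 1.40e-06) and -0.39 ± 0.06 without the 15 libraries (adjusted p = 5.94e-05). The coding genes on the outer sides of this pair did not pass. LOC105255594 had a slope of -0.22 ± 0.13 (edgeR on genes, adjusted p = 0.200) and LOC105255574 had -0.06 ± 0.04 (adjusted p = 0.275).

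XR_889755.3 of LOC105258544 fell by less, from 16.1 to 20.4 CPM in the shortest larvae (median 19.1) to 8.97 to 19.2 in the intermediate (median 14.5) and 11.9 to 16.5 in the longest (median 14). Its lowest larva was thus an intermediate one. Its slope was -0.21 ± 0.04 (edgeR adjusted p = 7.80e-05) and -0.17 ± 0.02 without the 15 libraries. LOC105256702, whose levels fell into separate ranges, had 28.4 to 186 CPM in the shortest larvae (median 109), 0.232 to 135 in the intermediate (median 6.54) and 0.176 to 105 in the longest (median 2.06). Its mean was 6.92-fold higher in the shortest, with a slope of -1.45 ± 0.36 (edgeR adjusted p = 0.00374) and of -1.23 ± 0.29 without the 15 libraries (adjusted p = 0.00247). The coding neighbour on one side, LOC105253988, fell with a gene slope of -1.65 ± 0.32 (adjusted p = 0.000136), while the one on the other side, LOC112638426, had a slope of 0.88 and did not pass (edgeR on genes, adjusted p = 0.0653).

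The means of the other 4 falling ones were 1.21- to 1.52-fold higher in the shortest than in the longest larvae. XR_003123657.1 of LOC112639752 had a slope of -0.27 ± 0.07 (edgeR adjusted p = 0.00472) and of -0.18 ± 0.06 without the 15 libraries. XR_889102.2 of LOC105250207 had -0.29 ± 0.09 (adjusted p = 0.0146), which did not pass without the 15 libraries (-0.24, adjusted p = 0.0672). XR_003123460.1 of LOC112639356 had -0.19 ± 0.05 and XR_003122879.1 of LOC112638105 had -0.14 ± 0.04 (adjusted p = 0.0151 and 0.0180).

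Both misc_RNAs that rose belong to genes with a single transcript. XR_003123547.1 of LOC105256792 went from 14.4 to 30.7 CPM in the shortest larvae (median 20.5) over 13.2 to 67.2 in the intermediate (median 35.9) to 26.7 to 64.6 in the longest (median 41.8), a 2.13-fold higher mean. Its slope was 0.54 ± 0.09 (edgeR adjusted p = 1.41e-05) and 0.48 without the 15 libraries (adjusted p = 1.93e-07). XR_003122763.1 of LOC105253068 had medians of 2.35, 8.65 and 6.11 CPM in the shortest, intermediate and longest larvae, with highest larvae at 13, 121 and 77.9. Its slope was 1.30 ± 0.41 (edgeR adjusted p = 0.0258), and 0.48 without the 15 libraries (adjusted p = 0.0113).

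Genes of the long non-coding transcripts were set beside their nearest coding genes in the order of the gene table. For 137 genes there were 229 such pairs, and in 60 of them the non-coding gene was called with length in a fit over genes, where 16.8% of 10513 genes rose and 13.9% fell. The neighbour was called too in 20 of these 60 (33.3%), and over all genes in 2003 of 5784 (34.6%). Of the 20 pairs 17 went the same way (85.0%), and over all genes 1304 of the 2003 did (65.1%). Pairs that share a gene are not independent, 39 of the 137 genes overlap a neighbour in the table, and the difference between these shares was not tested.

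The non-coding isoforms of coding genes were moderate in level. XR_889796.3 of LOC105259208 was the highest, with 57.5, 205 and 299 TPM in its lowest, median and highest larva, and carried 48.9% of the reads of a gene with 15 annotated transcripts. XR_002192634.2 of LOC105252785 had 28.2, 116 and 178 TPM but only 7.19% of its gene. XR_003122955.1 of LOC105251028 followed at a mean of 90.5 TPM, XR_003123083.1 of LOC105254594 at 77.9 and XR_003122476.1 of LOC105250000 at 55.3. Over the 96, the mean share of the gene's reads ran from 0.540% to 99.4% with a median of 34.5%, and 34 isoforms held at least 50%. In such cases most reads of a gene classed as coding were assigned to a transcript classed as non-coding. Isoforms share exons, so their levels rest on the way the estimate divides shared reads.

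With length, XR_003122955.1 of LOC105251028 rose from 53.5 to 125 CPM in the shortest larvae (median 95.8) over 72.5 to 199 in the intermediate (median 124) to 84.7 to 200 in the longest (median 125). The slope was 0.25 ± 0.05 (edgeR adjusted p = 0.000775). XR_003123562.1 of LOC105251196 had 0.21 ± 0.05, XR_003123490.1 of LOC105258185 had 0.41 ± 0.11 and XR_003123495.1 of LOC105254661 had 0.22 ± 0.07 (adjusted p = 0.00172, 0.0100 and 0.0218). Without the 15 libraries LOC105258185 did not pass (0.19, adjusted p = 0.0563), while the others did.

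XR_003123131.1 of LOC105255672, which carried 99.4% of its gene, fell from 18.1 to 29.5 CPM in the shortest larvae (median 23.6) over 16.3 to 27.1 in the intermediate (median 22.0) to 13.3 to 22.2 in the longest (median 18.1). All 16 longest larvae were under the median of the 16 shortest, and the slope was -0.21 ± 0.03 (edgeR adjusted p = 7.98e-06). XR_003123258.1 of LOC105258422 had -0.19 ± 0.04, XR_003123262.1 of LOC105253659 had -0.14 ± 0.03 and XR_002192930.2 of LOC109610576 had -0.19 ± 0.05 (adjusted p = 0.000257, 0.000260 and 0.00335). In these 3 also, all 16 longest larvae were under the median of the 16 shortest, and the 4 calls held without the 15 libraries.

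Whether a transcript changed its share within its gene was tested with limma on the log2 ratio of its reads to the rest of the gene, over 13496 transcripts. A share can move while the level does not, and the reverse. Of 151 non-coding transcripts tested, 4 took a higher share in longer larvae and none a lower one, while 22 had an unadjusted p under 0.05. Over all transcripts 0.748% were higher and 0.934% lower. With edgeR's diffSpliceDGE none of the 151 was called, and 2 had an unadjusted p under 0.05.

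**Figure D5:**
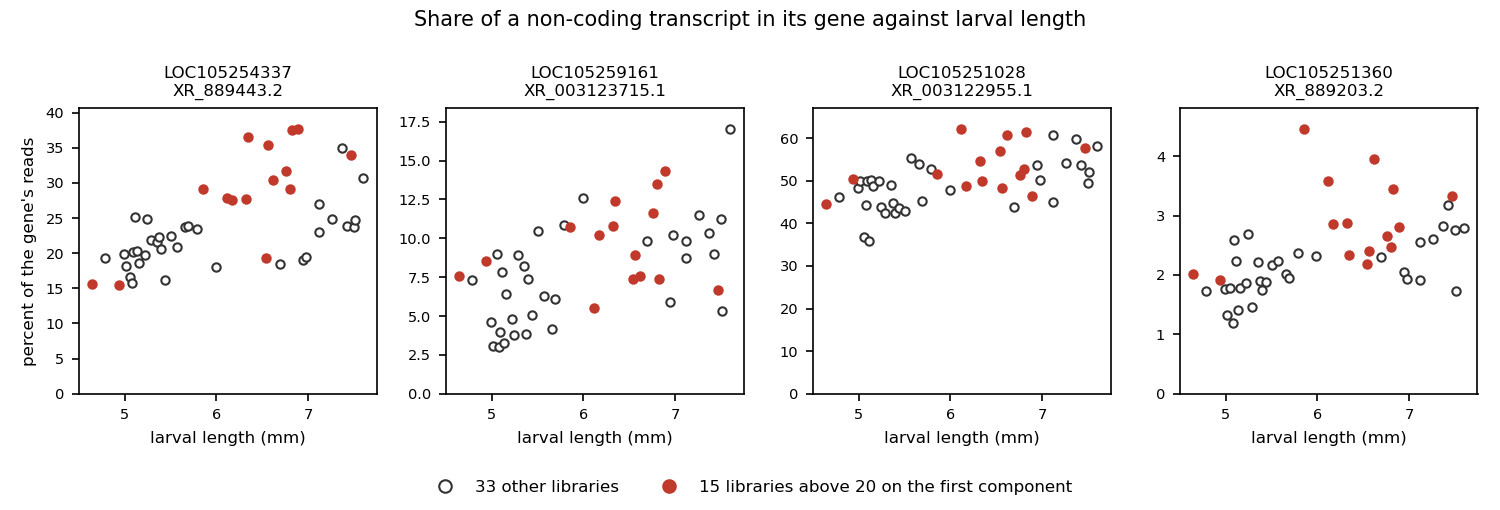
Percent of the gene's reads held by the 4 non-coding transcripts called in the share test, against larval length in mm, 1 point per larva, with the 15 libraries above 20 on the first component filled. Axes start at 0. The mean share of XR_889443.2 was 19.7% in the 16 shortest and 27.5% in the 16 longest larvae.

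XR_889443.2 of LOC105254337, 1 of 6 transcripts of its gene, held between 15.5% and 25.2% of that gene in the shortest larvae (median 19.8%) and 18.5% to 37.7% in the longest (median 25.9%). The slope of the log2 ratio was 0.32 ± 0.07 per mm (limma adjusted p = 0.00351), and 0.19 without the 15 libraries (adjusted p = 0.0869). XR_003123715.1, a misc_RNA of LOC105259161, went from a mean of 5.89% ± 2.28 (SD, n = 16) in the shortest to 10.2% ± 3.12 in the longest larvae. Its adjusted p by limma was 0.0153 and stayed under the threshold without the 15 libraries, at 0.0355.

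XR_003122955.1 of LOC105251028, which also rose in level, went from 46.0% ± 4.58 to 53.1% ± 5.42 of its gene (limma adjusted p = 0.0172). XR_889203.2 of LOC105251360 went from 1.86% ± 0.42 to 2.58% ± 0.50 (adjusted p = 0.0228). Without the 15 libraries these did not pass (adjusted p = 0.0678 and 0.0768). Without larvae No. 42 and No. 43, XR_889443.2 was the only one of the 4 to pass (adjusted p = 0.0163). The remaining isoforms of smallest p did not pass in the fit of all larvae, among them XR_889574.3 of LOC105256183 with a slope of -0.29 (adjusted p = 0.0907) and XR_889513.3 of LOC105255288 with 0.24 (adjusted p = 0.0982).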

How the data were processed

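Poly(A) RNA of the whole bodies of 48 larvae was sequenced paired-end from strand-marked libraries, per the labels' protocols. Without role or order, the submitters' processing notes list Salmon, DESeq, DESeq2, Trim Galore 0.6.7 and bcl2fastq 2.20. Salmon's version, index and strand setting, and the genome build, were not stated in any source used here. TPM and estimated counts per transcript were taken from each larva's deposited table, per the file headers. The authors' deposited table of a normalized signal served only as an alternative, and its 1 cell that is not a number, XR_889534.3 in larva No. 38, dropped that larva there. TPM divides by effective length, so few reads of a very short transcript give a high TPM, and poly(A) selection removes most RNA without a tail.

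Classes and gene order come from RefSeq, with all 300 transcripts matched. No sequences or coordinates are printed. The transcript without a gene took at most 0.00124% of a library and was left out.

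Estimated counts were rounded, filtered with filterByExpr and scaled by TMM in edgeR 4.0.16 (R 4.3.3), with length in mm as the covariate. The SE of a slope is the slope over the square root of F. Shares were tested with limma 3.58.1, after adding 0.5 reads, where the transcript and the rest of its gene each had a mean of at least 10 reads. DESeq2 1.42.0 was an alternative. Adjusted p-values are Benjamini-Hochberg over all features tested.

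The transcripts, the kinds, the 15 libraries and the alternatives were chosen with earlier results of these data known. Named are the 10 of highest mean TPM, the 8 highest of the other classes, the 8 rising and 8 falling long non-coding RNAs and 4 and 4 isoforms of smallest p, the 5 isoforms of highest mean TPM, the 6 of smallest p for shares, the 5 largest and 5 smallest spreads, and 3 on each side of the threshold.

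On simulated counts, 28.5% of 200 transcripts with a slope of 0.25 were recovered, 51.5% at 0.5 and 78% at 1, with 9.52%, 3.74% and 6.02% of calls on unchanged ones. These counts were drawn independently for each transcript, without libraries that stand apart together, so the rates need not hold for the real libraries.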

Additional observations from a re-analysis of the deposited data

How the results depend on the processing

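No called transcript changed direction under the 15 alternatives of the length fit. Of 735 alternative slopes of 49 named transcripts, 707 stayed on the same side of the threshold, 15 now passed and 13 no longer passed. These 49 were named by p, level or spread, so they need not stand for all 47 called transcripts. Of the 47 calls, 32 held with the total count as a covariate and 35 without the 15 libraries. On log2(TPM + 1) 38 held, on log2(TPM + 0.1) 37, and without the 2 longest and 2 shortest larvae 39. Each of the other alternatives kept 41 to 47. The counts moved most with the scale: on log2(TPM + 1) and on log2(TPM + 0.1) alike 46 transcripts fell, 27 of them long non-coding and 17 isoforms, while 3 isoforms rose. The median slope of all transcripts was -0.07 and -0.11 there. Counts over all features moved as well. Summed per gene, 44 transcripts (14.7%) rose by their gene, 16 of them isoforms, beside 1769 of 10513 genes (16.8%). With the total count as a covariate 17 rose, 9 of them long non-coding, beside 1213 of all transcripts in place of 1412. Isoforms that rose numbered 11 with DESeq2 and 11 without the 2 longest and 2 shortest larvae, beside 1987 and 1714 of all transcripts. For shares, 1 higher and 1 lower was called without the 15 libraries, 1 higher without larvae No. 42 and No. 43, and 0 with diffSpliceDGE, beside 174, 151 and 19 calls over all transcripts in place of 227. The median SD of the ribosomal transcripts was 2.70 on log2(TPM + 0.1) and 0.61 on log2(CPM + 1), and that of the small RNAs was 0.29 on the latter. The added amount weighs differently on these scales for transcripts of few reads, so these SDs are not like measures. The cause of these shifts was not tested. The ribosomal transcripts of 120 nt had a mean of 9.18 to 42.5 reads per larva, and slopes of all ribosomal and small RNAs had SEs of 0.10 to 0.57.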
